A study of Mus musculus with 4 samples.

Results

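The genes described here encode the T cell receptor (TCR) complex and the proteins that act directly behind it, measured in T29, a cell line from a mouse thymic lymphoma, with and without an inhibitor of gamma-secretase. The set was given as a list of 38 gene symbols, from the receptor chains to the NFAT transcription factors. Probe sets were taken whose only symbol in the platform annotation is a listed gene, and each gene was read at its brightest one by the mean of the 4 arrays. This gave 37 of the 38 genes, among 18193 measured in all, and Lck was not analysed here.

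Total RNA of T29 was measured on Affymetrix expression arrays in 2 groups of 2 samples. Cells of the control group received DMSO, the solvent, and those of the other group MRK003 (GSI), for which the labels write a dose of 5 mM and 36 h. The protocol text is the same for all 4 samples, so the sample titles give the groups, and whether the dose unit is correct could not be checked. All samples come from 1 line, the labels give no genotype or age for it, and they are silent on whether replicates were cultured separately. The p-values therefore cover the spread among these samples, which may be technical only.

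The TCR recognises antigen but carries no enzyme. It signals through the associated CD3 and zeta chains, whose cytoplasmic tyrosines are phosphorylated by Lck and Fyn and then bound by the kinase Zap70. Zap70 phosphorylates the adaptors Lat and Slp-76, on which Grb2, Gads, phospholipase C gamma and Vav1 assemble, and the branches that follow run through Ras, calcium and NFAT, and through protein kinase C theta with Bcl10 and Malt1. In thymocytes the pre-TCR uses the same machinery, at a stage of development that also requires Notch, a substrate of gamma-secretase.

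Values are log2 expression from RMA, and differences are GSI minus DMSO on that log2 scale. A gene is said to have risen or fallen where its adjusted p was under 0.05 (limma, Benjamini-Hochberg over all 18193 genes). The Notch targets read as a check of the inhibitor were lower. Hes1 fell by 2.26, Nrarp fell by 2.42 and Dtx1 fell by 3.53. T-lineage markers outside the list, such as Thy1, Rag1 and Bcl11b, lay above the array median on all 4 arrays in 7 of 9 cases, whereas Cd2 and Cd5 lay below it on all 4. Among these 9 markers Cd8a, Cd4 and Thy1 rose by 1.07, 0.75 and 0.53 and Ptcra fell by 1.70. Cd2 (-0.79) and Rag2 (-0.75) had lower means without passing. At an unadjusted p under 0.05 in limma, 5 of the 9 were higher and 3 lower, where 10.8% and 10.7% of all genes were. Of the markers of other cells, those that changed were Cpa3 (2.80) and Kit (0.86) of 6 mast cell markers, Blnk (0.48) of 7 B cell markers and Pdgfrb (-1.28) of 4 stromal markers. The mean log2 level of the mast cell list was 4.26 and 4.05 with DMSO and 4.88 and 4.59 with GSI, and the other 4 of its genes, Fcer1a, Ms4a2, Mcpt4 and Tpsb2, lay below the array median on every array. None of 8 myeloid, 5 natural killer and 3 erythroid markers passed limma, with 1, 0 and 1 higher at an unadjusted p under 0.05. The part of these markers in the results below was not tested, and in bulk RNA a changed number of cells of a type and a changed amount of RNA per cell cannot be told apart.

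With GSI, 5 of the 37 genes rose and 1 fell. The rises were Sla (2.50-fold), Cd247 (1.75-fold), Themis (1.62-fold), Prkcq (1.53-fold) and Lcp2 (1.52-fold), and the fall was Cd3g (1.39-fold). Over all genes, 2.56% rose and 1.56% fell (4.12% in either direction), against 13.5% and 2.70% of these 37 (16.2% in either direction). The 37 were brighter than most genes: 35 lay above the array median on all 4 arrays, against 10579 of all 18193. Dim genes, with a mean below the median of all probe set values, were left out as an alternative. There 9 of 35 listed genes rose and 2 fell, against 899 and 685 of 10969 genes. The part of signal level in these shares was not tested. At an unadjusted p under 0.05, 13 of the 37 were higher and 3 lower, where 10.8% and 10.7% of all genes were. Both GSI arrays lay above both DMSO arrays in 22 of the 37 and below them in 6, where 23.7% and 27.7% of all genes did so. The median difference of the 37 was 0.11, and that of all genes -0.01.

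**Figure D1:**
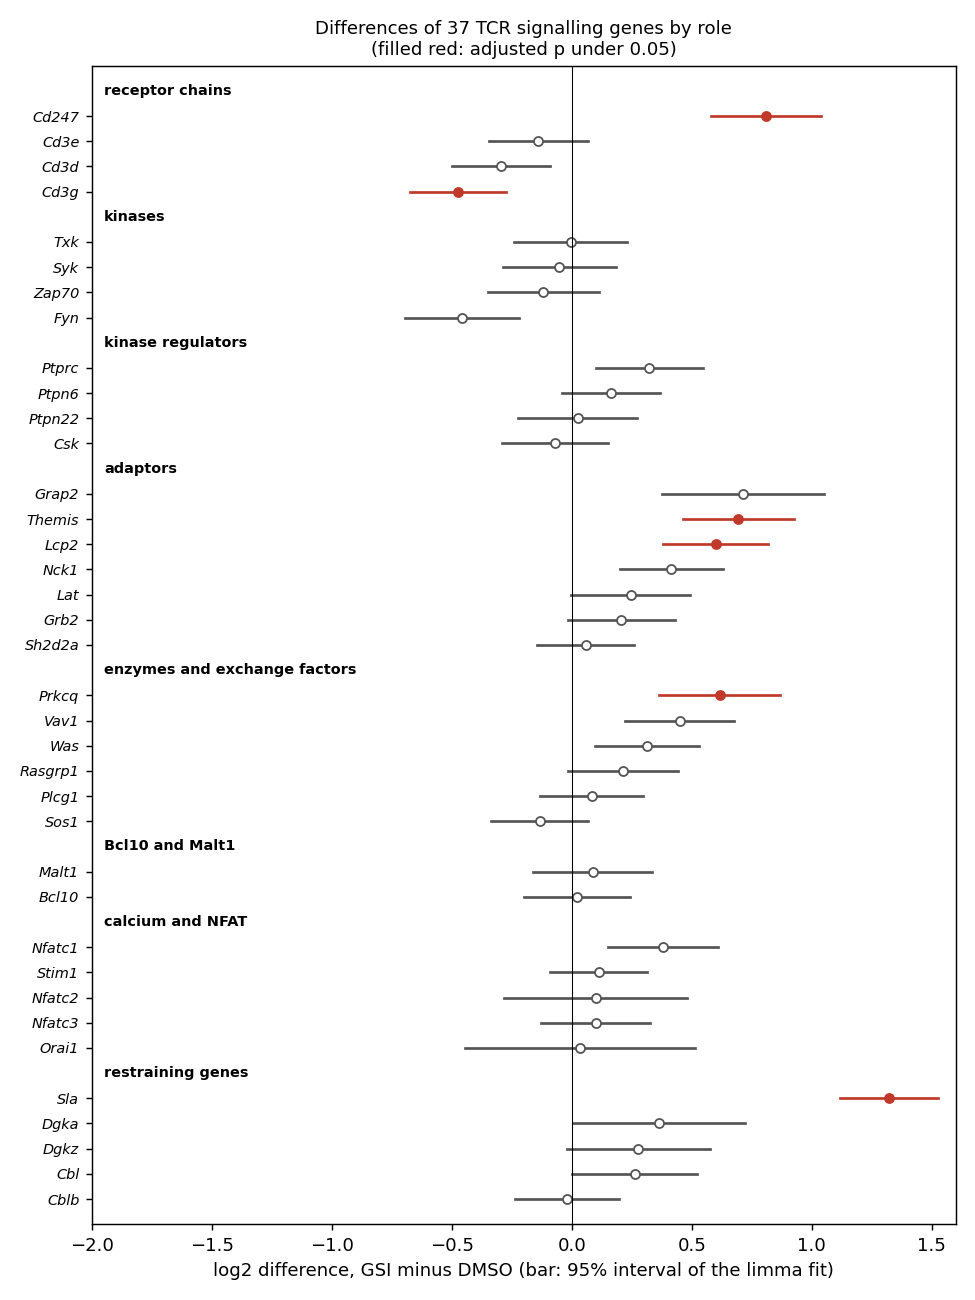
Log2 difference of each of the 37 measured genes, GSI minus DMSO (horizontal axis), with the 95% interval of the limma fit, grouped by role. The 6 genes past the threshold are filled, with Sla farthest to the right at 1.32 and Cd3g to the left at -0.47.

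Of the 4 signalling chains of the receptor, 1 rose and 1 fell. Cd247, which encodes the zeta chain, rose, Cd3g, encoding CD3 gamma, fell, and Cd3d and Cd3e, encoding CD3 delta and epsilon, had lower means with GSI without passing. Cd247 measured 9.76 and 9.64 with DMSO and 10.55 and 10.47 with GSI. The groups did not overlap, and the difference of 0.81 (SE 0.09, adjusted p = 0.0136, limma) exceeded the gaps of 0.12 and 0.09 between replicates. Cd3g measured 12.17 on both DMSO arrays and 11.70 on both GSI arrays. Its fall was 0.47 (SE 0.0814, adjusted p = 0.0409, limma). The replicates of Cd3g lay only 0.0019 and 0.0005 apart, far closer than the median gap over all genes of 0.11 in both groups. Its SE from the moderated fit was still close to that of Cd3d (0.0826), whose replicates lay 0.034 apart in both groups.

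Cd3d measured 12.62 and 12.65 with DMSO and 12.36 and 12.32 with GSI. Its arrays did not overlap between groups either, but the difference of -0.30 (95% interval -0.50 to -0.09) had an adjusted p of 0.116 in limma. Cd3e measured 10.54 and 10.58 with DMSO and 10.44 and 10.39 with GSI. That difference of -0.14 (95% interval -0.35 to 0.07) was the smallest of the 4 chains. In the gene order of GRCm38.p6 Cd3g, Cd3d and Cd3e are consecutive protein-coding genes on chromosome 9, while Cd247 lies on chromosome 1.

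**Figure D2:**
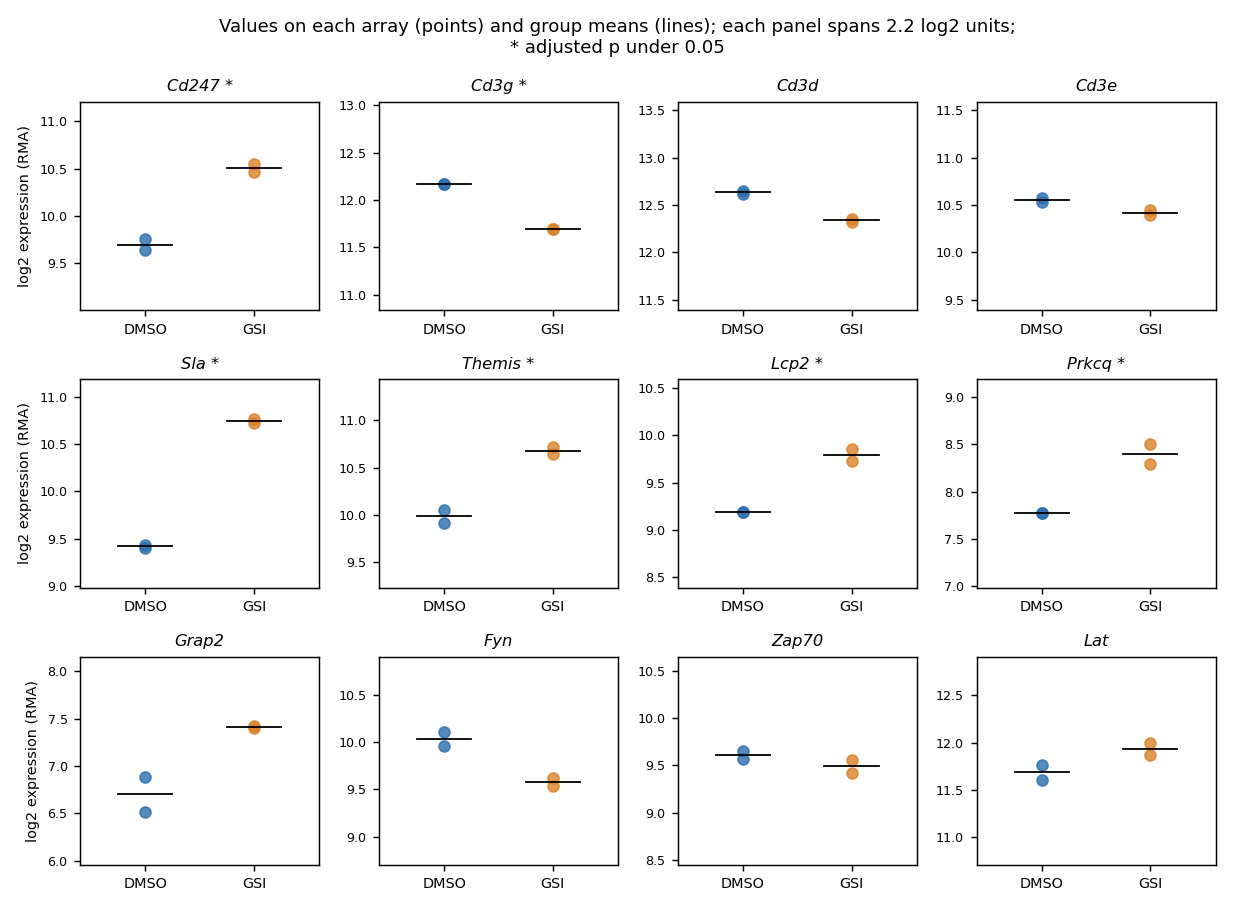
Log2 expression on each array (points) and group means (lines) for 12 of the genes, with every panel spanning the same range of log2 units. For Cd247, Sla, Themis, Lcp2, Prkcq and Grap2 both GSI arrays lie above both DMSO arrays, and for Cd3g, Cd3d, Cd3e, Fyn and Zap70 below them.

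The 250 bases before the start of each of these 4 genes, whose differences have different signs, are shown 5′ to 3′ on the strand of the gene, from RefSeq on build GRCm38.p6. Capitals mark TGGGAA, on either strand, the core that the Notch partner RBPJ binds.
Cd247, chr1:165788431-165788680, plus strand: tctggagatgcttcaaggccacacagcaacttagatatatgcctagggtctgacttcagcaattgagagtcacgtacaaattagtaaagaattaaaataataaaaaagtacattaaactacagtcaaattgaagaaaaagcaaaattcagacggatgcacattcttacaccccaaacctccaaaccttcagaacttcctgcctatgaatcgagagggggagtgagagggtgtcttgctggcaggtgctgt
Cd3g, chr9:44980432-44980681, minus strand: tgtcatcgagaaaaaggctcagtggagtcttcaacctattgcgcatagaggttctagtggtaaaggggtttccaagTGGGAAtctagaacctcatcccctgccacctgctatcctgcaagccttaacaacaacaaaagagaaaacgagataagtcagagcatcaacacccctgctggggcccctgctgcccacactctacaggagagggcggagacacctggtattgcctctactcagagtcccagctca
Cd3d, chr9:44981536-44981785, plus strand: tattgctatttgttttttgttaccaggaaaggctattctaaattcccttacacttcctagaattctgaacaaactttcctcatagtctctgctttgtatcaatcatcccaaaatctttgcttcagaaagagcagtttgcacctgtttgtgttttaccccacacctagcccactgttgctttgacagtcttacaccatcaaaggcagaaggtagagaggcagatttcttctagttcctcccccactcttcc
Cd3e, chr9:45009612-45009861, minus strand: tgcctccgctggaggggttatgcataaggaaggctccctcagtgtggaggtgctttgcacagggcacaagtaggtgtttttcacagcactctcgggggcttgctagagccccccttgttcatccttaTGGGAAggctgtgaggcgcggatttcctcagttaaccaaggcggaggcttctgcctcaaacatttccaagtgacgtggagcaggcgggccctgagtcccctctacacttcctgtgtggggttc

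TGGGAA was found once each before Cd3g, at 174 bases from the start, and before Cd3e, at 123 bases, and not in the windows of Cd247 and Cd3d. RefSeq windows were held for 33 of the 37 genes, with 49 windows in all, since some genes have several starts. TGGGAA on either strand stood in 12 of these 49 windows (24.5%) and in 21.6% of the 32851 windows of all genes. Counted by gene, 11 of the 33 had TGGGAA in at least 1 window, a count that was not made over all genes. Of the 6 genes that changed, 5 had a window, and Cd3g and Lcp2 were those with the motif. The E-box CANNTG, which E proteins bind and which reads the same on both strands, stood in 36 of the 49 windows (73.5%) and in 66.2% of all windows, with 3 matches before Cd3g, 2 before Cd247 and 1 each before Cd3d and Cd3e. Before Cd3g an E-box shares 2 bases with TGGGAA. A match of such short letters is a description and shows no binding.

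None of the tyrosine kinase genes Fyn, Zap70, Syk and Txk passed the threshold. Fyn, the Src-family kinase that acts beside Lck on the receptor chains, measured 9.95 and 10.11 with DMSO and 9.61 and 9.53 with GSI. Its groups did not overlap, and the difference of -0.46 (95% interval -0.70 to -0.22) missed the threshold (adjusted p = 0.0623, limma). Its other probe set gave -0.43. Zap70 measured 9.57 and 9.65 with DMSO and 9.56 and 9.42 with GSI, a difference of -0.12 (95% interval -0.35 to 0.11), and all 3 of its probe sets had lower means. Syk, the relative of Zap70 used by B cells and early thymocytes, and Txk, a Tec-family kinase, were dim. Txk lay below the array median on all 4 arrays, and the difference of Syk was -0.05 and of Txk -0.005.

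No gene that sets the activity of these kinases passed either. Ptprc encodes CD45, the phosphatase that removes the inhibitory phosphate of Lck. It measured 12.13 and 12.24 with DMSO and 12.47 and 12.55 with GSI, without overlap, and its difference of 0.32 (95% interval 0.10 to 0.55) had an adjusted p of 0.117 in limma. Its other, much dimmer probe set gave 0.56. Csk, the kinase that adds the inhibitory phosphate, differed by -0.07 (95% interval -0.29 to 0.15). The phosphatase genes Ptpn6 (SHP-1) and Ptpn22 differed by 0.17 and 0.02, with intervals of -0.04 to 0.37 and -0.22 to 0.27.

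All 7 adaptor genes had higher means with GSI, with a median difference of 0.42, and in each of them both GSI arrays lay above both DMSO arrays, as in 23.7% of all genes. Passing the threshold were Themis and Lcp2. Themis encodes a thymocyte protein that binds Grb2 and SHP-1 and is needed for positive selection. It measured 9.92 and 10.06 with DMSO and 10.72 and 10.64 with GSI, a difference of 0.69 (SE 0.09, adjusted p = 0.0223, limma), and its 4 probe sets ranged from 0.55 to 0.83. Lcp2 encodes Slp-76, the scaffold that Zap70 phosphorylates. It measured 9.19 and 9.20 with DMSO and 9.85 and 9.73 with GSI, a difference of 0.60 (SE 0.09, adjusted p = 0.0293, limma), and its dimmer probe set gave 0.59.

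Grap2 encodes Gads, the link between Slp-76 and Lat. With 6.89 and 6.51 under DMSO and 7.41 and 7.42 under GSI, its difference of 0.71 (95% interval 0.38 to 1.05) was larger than those of Themis and Lcp2. The gap of 0.37 between the DMSO arrays was also the widest among the adaptors, and the adjusted p was 0.0513 in limma. Its other probe set gave 0.87. Nck1, an adaptor that ties the receptor to the actin skeleton, measured 8.95 and 8.89 with DMSO and 9.38 and 9.29 with GSI, a difference of 0.42 (95% interval 0.20 to 0.63, adjusted p = 0.0626, limma). Its other 2 probe sets were dimmer and gave 0.21 and 0.22, and without probe sets that can bind several transcripts the difference was 0.21 (adjusted p = 0.382, limma). Lat, the membrane scaffold, differed by 0.25 (95% interval -0.004 to 0.49), Grb2, which brings Sos1 to Lat, by 0.21 (95% interval -0.02 to 0.43) and Sh2d2a, encoding TSAd, by 0.06 (95% interval -0.14 to 0.26).

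**Figure D3:**
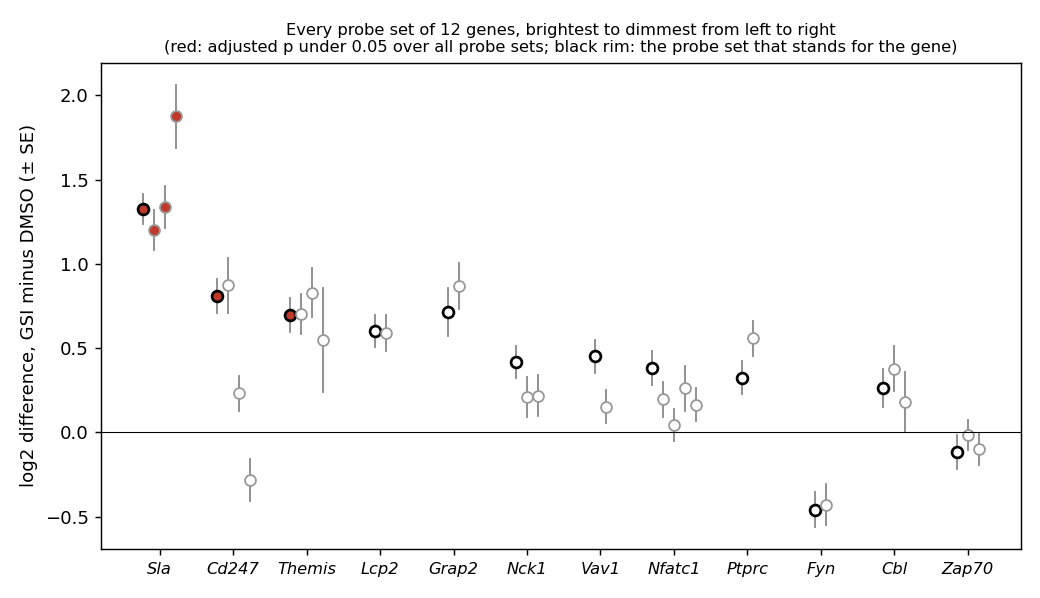
Log2 difference, GSI minus DMSO, with its SE (vertical axis) for every probe set of 12 genes, ordered within a gene from brightest to dimmest. The 4 probe sets of Sla lie between 1.20 and 1.88, whereas those of Cd247 run from 0.87 down to -0.28.

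Among the enzymes and exchange factors that gather on the adaptors, Prkcq rose. It encodes protein kinase C theta, which passes the signal toward Bcl10 and Malt1. Its only probe set, of the kind that can bind several transcripts, measured 7.78 and 7.78 with DMSO and 8.50 and 8.29 with GSI, a difference of 0.62 (SE 0.10, adjusted p = 0.0381, limma). Vav1, a guanine nucleotide exchange factor, measured 8.46 and 8.40 with DMSO and 8.94 and 8.81 with GSI. Its difference of 0.45 (95% interval 0.22 to 0.68) had an adjusted p of 0.0577 in limma, and its dimmer probe set, the one left without those that can bind several transcripts, gave 0.15. Was, encoding the actin regulator WASP that acts downstream of Vav1, differed by 0.31 (95% interval 0.10 to 0.53, adjusted p = 0.118, limma).

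The pair of Ras exchange factors and the phospholipase showed smaller differences. Rasgrp1, which responds to diacylglycerol, differed by 0.21 (95% interval -0.01 to 0.44), with all 4 probe sets higher. Sos1, which Grb2 recruits, differed by -0.13 (95% interval -0.33 to 0.07), and it was the only gene of this role with a lower mean. Plcg1, encoding the phospholipase that makes diacylglycerol and the calcium-releasing messenger, differed by 0.08 (95% interval -0.13 to 0.30).

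Bcl10, Malt1, Stim1, Orai1 and the 3 NFAT genes did not pass. Bcl10 and Malt1, which act downstream of protein kinase C theta, differed by 0.02 (95% interval -0.20 to 0.24) and 0.09 (95% interval -0.16 to 0.34), and both overlapped between groups. Stim1, the calcium sensor of the endoplasmic reticulum, differed by 0.11 (95% interval -0.09 to 0.31). Orai1, the channel that Stim1 opens, had DMSO arrays 0.54 apart, the widest gap among the 37 genes, and its interval of -0.44 to 0.51 was accordingly wide. Of the NFAT genes, Nfatc1 measured 7.56 and 7.44 with DMSO and 7.93 and 7.83 with GSI. The groups did not overlap, and the difference of 0.38 (95% interval 0.15 to 0.61) had an adjusted p of 0.0870 in limma, with its 5 probe sets ranging from 0.04 to 0.38. Nfatc2 differed by 0.10 (95% interval -0.28 to 0.48), with its probe sets on both sides of 0, and Nfatc3 also by 0.10 (95% interval -0.13 to 0.33).

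The change of largest size in the list was that of Sla, among the genes that restrain the signal. Sla encodes SLAP, an adaptor that works with the ubiquitin ligase Cbl to lower the amount of zeta chain and receptor on mouse thymocytes. It measured 9.41 and 9.43 with DMSO and 10.72 and 10.77 with GSI. The difference of 1.32 (SE 0.08, adjusted p = 0.00318, limma) compared with gaps of 0.03 and 0.04 between replicates. All 4 probe sets of Sla passed when every probe set was tested on its own, at 1.20 to 1.88.

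The other restraining genes did not pass. Cbl measured 10.12 and 10.32 with DMSO and 10.54 and 10.43 with GSI, a difference of 0.26 (95% interval 0.003 to 0.52). Cblb, a second ligase of that family, differed by -0.02 (95% interval -0.23 to 0.20). Dgka and Dgkz encode diacylglycerol kinases, which remove the activator of Rasgrp1 and protein kinase C theta. Dgka measured 6.84 and 6.87 with DMSO and 7.42 and 7.01 with GSI, a difference of 0.36 with an interval of 0.005 to 0.72 that reflects GSI arrays 0.41 apart. Dgkz differed by 0.28 (95% interval -0.02 to 0.58).

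Other genes of the pathway, 90 in all and outside the 37, were read in the same fit, and 75 of them were measured. Of these 75, 7 rose (9.33%) and 0 fell, where 2.56% and 1.56% of all genes did. At an unadjusted p under 0.05 limma had 27 higher (36.0%) and 0 lower, where 10.8% and 10.7% of all genes were. Their median difference was 0.16, and 67 of the 75 lay above the array median on all 4 arrays. The rise of largest size was that of Sla2, encoding SLAP-2, the closest relative of SLAP and like it a restraining adaptor. Sla2 measured 7.87 and 7.74 with DMSO and 8.88 and 8.82 with GSI, a difference of 1.05 (SE 0.09, adjusted p = 0.00672, limma). Sit1, a membrane adaptor that recruits SHP phosphatases, rose by 0.99, and Dok2, an adaptor that restrains Ras and Zap70 signalling, by 0.79. The kinase gene Tec rose by 0.73, Ppp3ca, encoding a catalytic subunit of calcineurin, by 0.62, the phosphatase gene Ptprj by 0.56 and the GTPase gene Rac2 by 0.55. Both GSI arrays lay above both DMSO arrays in 40 of the 75 (53.3%), these 7 included, where 23.7% of all genes did so. Ptprj is dim, at 4.71 with DMSO, and missed the threshold when its probe sets were averaged (adjusted p = 0.349, limma). When every probe set was tested on its own, Sla2, Dok2 and Tec passed, whereas Sit1, Rac2, Ppp3ca and Ptprj did not (adjusted p = 0.0515, 0.0613, 0.0784 and 0.088, limma). The last pair also missed the threshold without probe sets that can bind several transcripts (adjusted p = 0.0506 and 0.0558, limma).

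**Figure D4:**
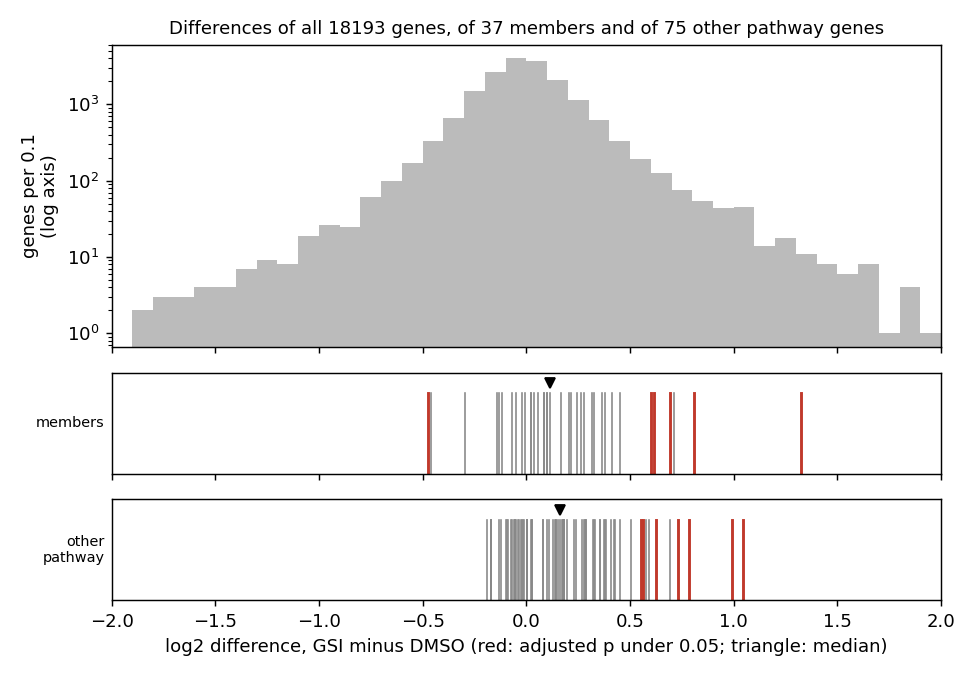
Number of genes per bin of log2 difference for all 18193 genes (top, log axis, drawn from -2 to 2), with each of the 37 genes (middle) and each of the 75 other pathway genes (bottom) as a line. The triangles mark medians of 0.11 and 0.16, and red lines mark genes past the threshold.

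For genes that did not pass, the intervals rest on the spread among these samples, which may be technical only. They do not bound what separate cultures would show. Of the 31 genes that did not pass, 20 had a 95% interval lying wholly between -0.5 and 0.5, the dim Syk and Txk among them. For 30 it lay between -1 and 1, Grap2 being the exception. Over all genes, 13252 and 17240 of the 17443 that did not pass had intervals within these 2 ranges. The median gap of the 37 genes was 0.07 between the DMSO arrays and 0.09 between the GSI arrays, against 0.11 for all genes in both groups. Several probe sets were measured for 26 of the 37, and in 19 of these all probe sets of the gene pointed the same way. Cd247 was among the 7 with probe sets on both sides: they gave 0.81, 0.87, 0.23 and, for the dimmest, -0.28, and their average missed the threshold (adjusted p = 0.0806, limma).

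How many genes passed depended on the setting of the fit. When all 45037 probe sets were tested, Sla, Cd247 and Themis passed, whereas Lcp2, Prkcq and Cd3g did not (adjusted p = 0.056, 0.0695 and 0.0784, limma). With an intensity trend and robust prior, 14 of the 37 passed, adding Grap2, Vav1, Nck1, Was, Ptprc and Nfatc1 upwards and Fyn and Cd3d downwards. In that setting 11 of the 37 rose and 3 fell, while 1042 and 899 of all 18193 genes did. With any 1 array left out, 0 of the 37 passed in limma, and the adjusted p of Sla lay between 0.0742 and 0.106.

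**Figure D5:**
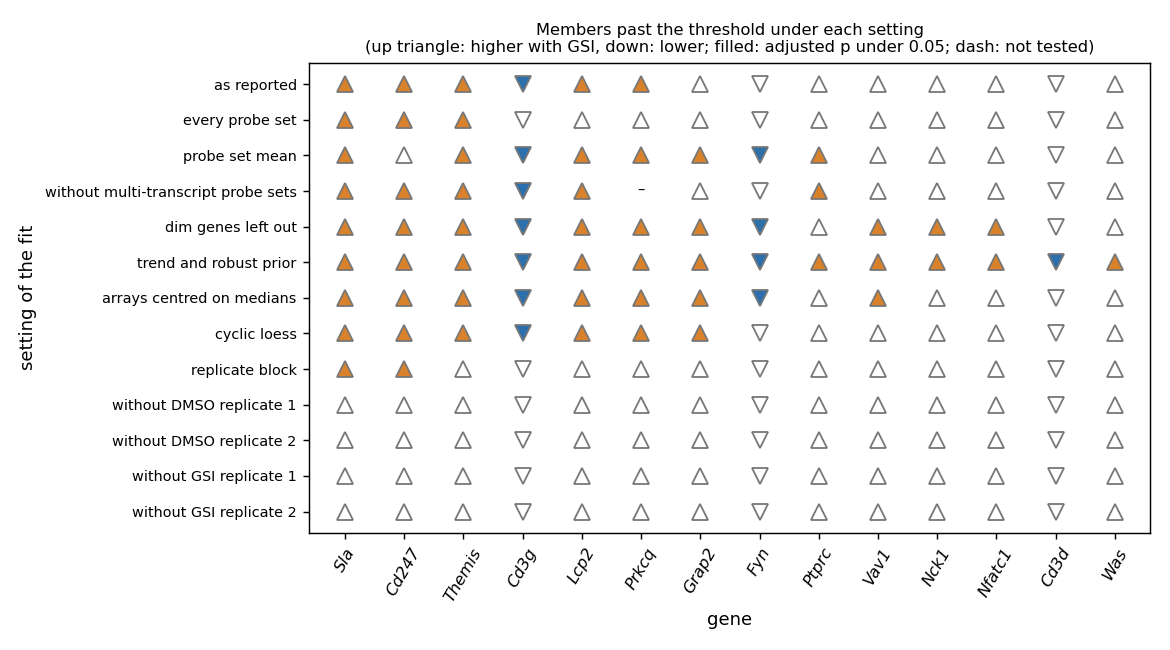
Direction and call of the 14 genes that passed under at least 1 setting of the fit (rows are settings, columns are genes). Sla is filled in all settings that used the 4 arrays, and no gene is filled when an array was left out.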

How the data were processed

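RNA of 4 T29 samples was measured on 1-colour Affymetrix arrays, 2 per group by sample title. The deposited values are log2 expression per probe set, made by the authors with RMA per the submitters' processing notes. For RMA, neither version nor settings are stated in the labels, and neither background correction nor normalization could be repeated. Of 45101 probe sets, 64 controls were left out. Of the remaining 45037, 34945 had 1 gene symbol, 932 several and 9160 none. Gene identifiers gave current RefSeq names of GRCm38.p6 (34741 matched). The brightest 1-symbol probe set stood for a gene. Groups were compared with limma 3.58.1 in R 4.3.3 (lmFit, eBayes, two-sided, no covariate, 5.80 total degrees of freedom) and adjusted by Benjamini-Hochberg. Every member is named, with the called members in full, and so is each called gene of the other pathway list. Of the steps, only the limma fit was tried on simulated data. SE and intervals are those of the moderated fit, and the number of arrays limits the precision. No pooled or other per-sample columns were used. The members, lists and alternatives were chosen with earlier results of these data known. The alternatives were all probe sets, probe set means, probe sets named _a_at, _s_at or _x_at (which can bind several transcripts) left out, dim genes left out, a trend and robust prior, centred arrays, cyclic loess, a replicate block, and each array left out.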

Additional observations from a re-analysis of the deposited data

How the results depend on the processing

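The counts of members that rose and fell were 5 and 1 as reported. They were 3 and 0 with every probe set tested, and 9 and 2 of the 35 members left without dim genes. With the trend and robust prior they were 11 and 3, and with the replicate block 2 and 0. They were 7 and 2 with centred arrays, and 6 and 2 with probe set means. The count of other pathway genes that rose was 7 as reported, 3 with every probe set and 15 of 68 without dim genes. It was 18 with the trend and robust prior and 1 with the replicate block. Over all genes, 466 rose and 284 fell as reported. These counts were 230 and 109 with every probe set, and 899 and 685 of the 10969 genes left without dim genes. With the trend and robust prior they were 1042 and 899, and with the replicate block 147 and 70. With centred arrays they were 611 and 384, and with probe set means 512 and 379. With each array left out in turn, 0 members and 0 other pathway genes passed, and over all genes 0 to 1 rose and 0 to 5 fell. Each such fit has fewer arrays and assumes that the lone array varies like the other group. The replicate numbers are shared only as numbers (correlation of same-numbered deviations 0.0851). The block also uses a residual degree of freedom, and the members passing with it were Sla and Cd247.

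Direction turned in members near 0 that did not pass: Txk with cyclic loess (0.0027), Plcg1 (-0.0265), Orai1 (-0.0056) and Nfatc2 (-0.0574) as probe set means, and Bcl10 (-0.0281) without multi-transcript probe sets. With an array left out, the differences ran from -0.124 to 0.0217 for Syk, -0.0856 to 0.0765 for Txk, -0.0706 to 0.120 for Ptpn22, -0.0326 to 0.0764 for Bcl10, -0.233 to 0.303 for Orai1, -0.0946 to 0.297 for Nfatc2 and -0.0653 to 0.0266 for Cblb. The cause of these changes was not tested. Dim probe sets such as those of Txk and Syk are read at low signal, and their background was not measured here.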
